A study of Mus musculus with 12 samples.

Results

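The cytosolic ribosomal protein genes were taken as the rows of the deposited expression table whose gene name was Rpl or Rps followed by a digit, or Rplp0, Rplp1, Rplp2 or Rpsa, leaving out the Rps6k kinases and the pseudogene names ending in -ps, with a mean of at least 5 TPM over all libraries. The pattern matched 104 rows, of which 10 were Rps6k genes and 7 were pseudogenes, and 83 of the remaining 87 reached the level, out of 20614 genes in the table. Just inside the level stood Rps27rt with a mean of 14.7 TPM, Rpl39 with 49.3 TPM and Rps19bp1 with 53.0 TPM. Outside it were Rps23rg1 with 1.47 TPM, Rpl3l with 0.21 TPM, Rpl39l with 0.13 TPM and Rpl10l with 0.02 TPM. The 83 genes held 31 proteins of the small subunit, 46 of the large subunit, 5 paralogs (Rpl7l1, Rpl22l1, Rpl36al, Rps27l and Rps27rt) and Rps19bp1, which is named after a partner of Rps19 and is not itself a ribosomal protein.

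RNA came from midbrain astrocytes of male mice aged 12 to 14 months. The paper lists the regions dissected as midbrain as striatum, thalamus and substantia nigra. There were 3 libraries of Cd38+/+ (WT), 3 of Cd38+/- (HET) and 6 of Cd38-/- (KO) mice on a C57BL/6J background. The null allele is global and disrupts exons 2 and 3 of Cd38, an ectoenzyme that consumes NAD. Myelin, endothelial cells and CD11b+ microglia were first removed with beads, and astrocytes were then captured with ACSA-2 beads. Expression is in TPM, an estimate of transcript abundance per length that is scaled to the same sum in each library, so that the read depth behind a value is unknown and no counting interval can be given. Whether each library came from 1 mouse is not stated in the sources used here, and p-values measure the spread between these libraries.

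Cd38 averaged 125 ± 22.2 TPM in WT (SD, n = 3), 90.6 ± 0.231 TPM in HET (n = 3) and 15.7 ± 5.21 TPM in KO (n = 6), with no overlap between genotypes. All 10 astrocyte markers had a mean of at least 5 TPM, and their summed level was 11421 to 17017 TPM in WT, 17012 to 19117 TPM in HET and 12445 to 17129 TPM in KO. RNA of other cells was present too. The 10 oligodendrocyte markers summed to between 1310 and 17821 TPM per library, the highest in KO replicate 3, the 8 choroid plexus markers to between 133 and 7481 TPM, the highest in HET replicate 1, and the 5 erythroid markers to between 7770 and 34711 TPM in WT, 3228 and 6453 TPM in HET and 3805 and 15378 TPM in KO. The WT libraries also listed fewer genes above 0 (13160 to 13516) than the HET (16160 to 16327) and KO libraries (15920 to 17906), and this difference and the WT genotype cannot be told apart.

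The cytosolic ribosome translates messenger RNA in the cytoplasm. Its small subunit reads the codons and its large subunit joins the amino acids. Nearly every protein of either subunit is needed in equal number, and cells usually control the messages of these genes together. Most of these messages begin with a run of pyrimidines, the 5' terminal oligopyrimidine (TOP) motif, through which mTORC1 and its target Larp1 control their translation.

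The sequences around the starts of these genes were searched for runs of C or T. RefSeq promoter sequences (build GRCm38.p6) were matched to 63 of the 83 genes by symbol. Within 20 bases of either side of the annotated start, an unbroken run of at least 8 C or T was found in 30 of the 63 genes (47.6%), against 18.4% of 27025 genes with a promoter sequence, and the longest run per gene had a median of 7 bases against 5. Where a gene had several annotated starts, the longest run at any of them was taken. A run could lie wholly before the start, as did the 9 bases from position -20 in Rpl5. The counts are therefore not counts of TOP motifs. The letters CCGGAAGT, the core of the site of ETS factors, stood on either strand of the 300-base promoter in 12 of 63 genes (19.0%), against 4.31% of all genes. This is a match of letters and not a site of binding. The windows below are shown for some of the genes named in the comparisons and do not represent the whole set. Each runs from 40 bases before to 20 bases after the annotated start, 5' to 3' on the strand of the gene, with the longest C or T run around the start in capitals.
Rpl38: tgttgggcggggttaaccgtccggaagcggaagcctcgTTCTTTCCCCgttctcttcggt
Rps27: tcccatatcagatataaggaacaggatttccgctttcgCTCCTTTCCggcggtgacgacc
Rpl35: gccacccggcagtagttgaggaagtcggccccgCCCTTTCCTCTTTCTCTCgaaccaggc
Rps9: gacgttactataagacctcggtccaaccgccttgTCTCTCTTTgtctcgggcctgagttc
Rpl22l1: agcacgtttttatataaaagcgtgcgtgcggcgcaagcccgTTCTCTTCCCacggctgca
Rpl7l1: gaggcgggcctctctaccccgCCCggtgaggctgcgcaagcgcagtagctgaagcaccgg

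These windows lie at chr11:114668540-114668599 (Rpl38, plus strand), chr3:90213629-90213688 (Rps27, minus strand), chr2:39005112-39005171 (Rpl35, minus strand), chr7:3704001-3704060 (Rps9, plus strand), chr3:28805468-28805527 (Rpl22l1, plus strand) and chr17:46782637-46782696 (Rpl7l1, minus strand). The run was 10 bases long in Rpl38 and Rpl22l1, 9 in Rps27 and Rps9, and 18 in Rpl35, but 3 in Rpl7l1. Among other genes named below it was 5 in Rpl36al, Rpl22, Rpl37a and Rpl27, 4 in Rps28 and 7 in Rpl11. It was 9 in Rpl5 and 10 in Rpl13. The 30 genes with a run of at least 8 and the 33 with a shorter run had medians of -0.01 and 0.04 for the log2 fold change of KO against WT, -0.32 and -0.30 for HET against WT, and 0.29 and 0.35 for KO against HET.

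Ribosomal protein messages were abundant and spread over a wide range. Mean levels ran from 14.7 to 602 TPM with a median of 194 TPM, against a median of 32.5 TPM over all genes with a mean of at least 5 TPM. Among the highest were Rpl13 (602 TPM), Rpl41 (593 TPM), Rps14 (541 TPM) and Rps25 (444 TPM), with Rps27 between the last 2. The lowest, beside Rps27rt, Rpl39 and Rps19bp1, were Rpl22 (54.2 TPM), Rpl12 (54.2 TPM) and Rps12 (58.7 TPM). Of the 83 genes, 60 have pseudogenes named after them in GENCODE vM21, 298 in all, so that reads could be shared between near-identical copies and single levels are uncertain to that extent. Each gene varied between the libraries by 1.54-fold (Rpl4) to 3.85-fold (Rps12) from lowest to highest, with a median of 1.94-fold.

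The genes moved together from library to library. The mean of log2(TPM + 1) over the 83 genes was 7.17, 7.53 and 7.66 in WT and 7.01, 7.34 and 7.18 in HET, and ran from 7.15 to 7.78 with a median of 7.55 in KO. Together they took 1.49%, 1.89% and 2.11% of all TPM in WT, 1.27%, 1.60% and 1.43% in HET, and from 1.42% to 2.21% with a median of 1.87% in KO. All 3 genotypes overlapped on both measures, and 4 of the 6 KO libraries lay inside the WT range of the mean. KO replicate 3 was the highest library for 36 genes and WT replicate 3 for 24, while HET replicate 1 was the lowest for 46 and WT replicate 1 for 22.

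**Figure D1:**
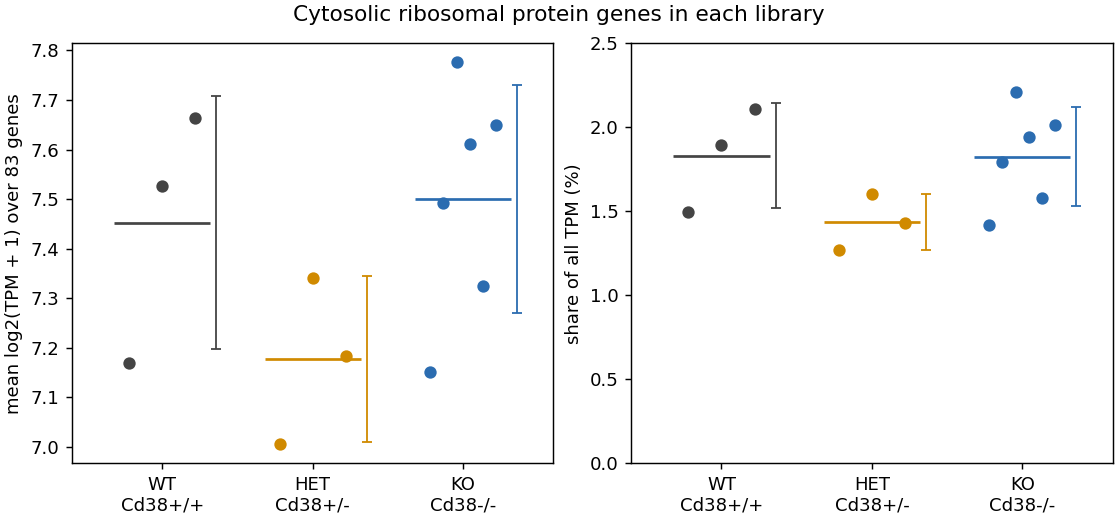
Mean log2(TPM + 1) over the 83 ribosomal protein genes (left) and their share of all TPM in percent (right) in each library of WT, HET and KO. Each point is 1 library, horizontal lines are genotype means and bars are SD; the 3 HET libraries sit between 7.01 and 7.34 on the left, with HET replicate 1 below every library of the other genotypes.

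Across the 12 libraries, the Pearson correlation of a gene with the mean of the other 82 had a median of 0.85 and exceeded 0.8 for 53 genes. It was under 0.5 for 5 genes, namely Rpl7l1 (0.03), Rpl5 (0.27), Rpl22 (0.32), Rps19bp1 (0.38) and Rpl22l1 (0.44), so that 2 of the 5 paralogs and the gene that is not a ribosomal protein were among the least tied. These values share libraries and scaling and carry no test. Other short transcripts moved with the ribosomal protein genes. Transcripts under 1000 bases other than these genes took 16.8%, 18.9% and 16.8% of TPM in WT, 11.5%, 15.5% and 13.2% in HET and 12.5% to 18.8% in KO, and over the 12 libraries this share had a Pearson correlation of 0.78 and a Spearman correlation of 0.76 with the mean of the ribosomal protein genes. The same mean had a Pearson correlation of -0.66 with the astrocyte marker sum, 0.49 with the oligodendrocyte sum and 0.51 with the neuron sum, and their part in the results was not tested. In bulk libraries, fewer cells of a type and less RNA per cell cannot be told apart.

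The comparison of KO with WT asked whether loss of Cd38 altered these messages in astrocytes. It showed few differences. Of the 83 genes, all of which passed the filter on low values, 1 rose and 1 fell (limma on log2(TPM + 1), with a Storey q below 0.05 and a change of 1.2-fold or more), against 8.28% of the 11722 genes tested, of which 6.42% rose and 1.86% fell. Positive log2 fold changes were found for 43, against 64.3% of all genes, and negative ones for 40, with a median of 0.02 against 0.15 over all genes. Median-ratio scaling moved the median of all genes to 0.04 and that of the 83 genes to -0.10, with 29 positive and 54 negative, so that the distance between the medians was -0.14 with either scaling. That distance was -0.012 with quantile normalization and 0.0069 once each library's dependence on length and GC content was taken out, and it ran from -0.24 (without WT replicate 1) to -0.048 (without WT replicate 2) when 1 library was left out. An unadjusted p under 0.05 was found for 7 genes that were higher, against 17.6% of all genes, and for 3 that were lower, against 5.99%. The libraries of KO and WT did not overlap for 3 higher genes (8.21% of all genes) and 1 lower gene (3.62%).

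Rpl7l1, a paralog of Rpl7 associated with assembly of the large subunit in the nucleolus, was the gene that rose. It read 52.2, 39.8 and 49.2 TPM in WT, 64.1, 58.1 and 63.5 TPM in HET, and 60.3 to 77.0 TPM with a median of 68.1 TPM in KO. All mutant libraries thus lay above all WT libraries. The log2 fold change of KO against WT was 0.53 (SE 0.15, limma q = 0.0366), and that of HET against WT was 0.40 (SE 0.21, limma q = 0.269).

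Rpl29, a small basic protein of the large subunit, was the gene that fell. It read 203, 218 and 212 TPM in WT, 132, 161 and 144 TPM in HET, and 121 to 183 TPM with a median of 156 TPM in KO. The WT libraries were again apart from every mutant library. The log2 fold change of KO against WT was -0.47 (SE 0.14, limma q = 0.0470), with -0.54 for HET against WT (SE 0.15, limma q = 0.177). The two-sided exact permutation test of KO against WT gave p = 0.0119 for Rpl7l1, the smallest that 6 and 3 libraries allow, and p = 0.0238 for Rpl29. Each call was kept in 10 of 23 alternative settings, with q ranging from 0.0137 to 0.460 for Rpl7l1 and from 0.0223 to 0.464 for Rpl29. Leaving out KO replicate 1, 2, 4, 5 or 6 left no ribosomal protein gene called. The shares of all genes called were then 0.957%, 0.633%, 6.79%, 0.793% and 1.31%. Of the 83 genes, 15 were called without WT replicate 3, 13 higher and 2 lower, and 7 without WT replicate 1, 1 higher and 6 lower. These were 18.1% and 8.43% of the ribosomal protein genes, against 26.5% and 15.5% of all genes tested without the same libraries. Fitting the replicate number as a block left 0 ribosomal protein genes called, against 0.0171% of all genes.

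The genes with the largest differences that did not pass the test included short proteins of the small subunit and paralogs. Rps27rt, a retrogene copy of Rps27, read 6.65, 13.0 and 11.1 TPM in WT and 13.8 to 25.5 TPM with a median of 17.6 TPM in KO, a log2 fold change of 0.83 (SE 0.28, limma q = 0.0629). Its reads are hard to tell from those of Rps27. Rpl22l1, the paralog that can replace Rpl22, read 76.3, 63.9 and 93.2 TPM in WT and 94.9 to 128 TPM with a median of 108 TPM in KO, a log2 fold change of 0.49 (SE 0.15, limma q = 0.0502). In both genes each KO library exceeded every WT library.

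Rpl22 itself, an RNA-binding protein of the large subunit, read 28.6, 75.4 and 26.1 TPM in WT, 50.4, 47.9 and 41.8 TPM in HET, and 53.3 to 79.3 TPM with a median of 60.3 TPM in KO. WT replicate 2 stood near the top of the KO range and the other WT libraries far below it, and the log2 fold change of 0.70 had an SE of 0.28 (limma q = 0.0943). Rps28, Rps27 and Rps29, which sit on the small subunit, had 0.66 (SE 0.22), 0.61 (SE 0.25) and 0.58 (SE 0.23), with limma q-values of 0.0625, 0.0975 and 0.0932. For these 3 genes WT replicate 3 lay within the KO range and the other WT libraries lay below every KO library.

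At the other end, Rpl36al had a log2 fold change of KO against WT of -0.51 (SE 0.18, limma q = 0.0710) and Rpl5 one of -0.42 (SE 0.15, limma q = 0.0726). Rpl5 and Rpl11 bind the 5S ribosomal RNA, and this particle can bind Mdm2 and so release p53. Rpl5 read 178, 157 and 116 TPM in WT, 93.3, 104 and 98.8 TPM in HET and 94.7 to 128 TPM with a median of 111 TPM in KO. WT replicate 3 lay within the KO range but above all HET libraries. Rpl11 read 108, 178 and 187 TPM in WT, 87.5, 110 and 99.5 TPM in HET and 103 to 158 TPM with a median of 132 TPM in KO, so that KO and WT overlapped (log2 fold change -0.24, SE 0.19). The remaining genes with low values were Rps9 (-0.32), Rpl10 (-0.28) and Rpl26 (-0.26).

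**Figure D2:**
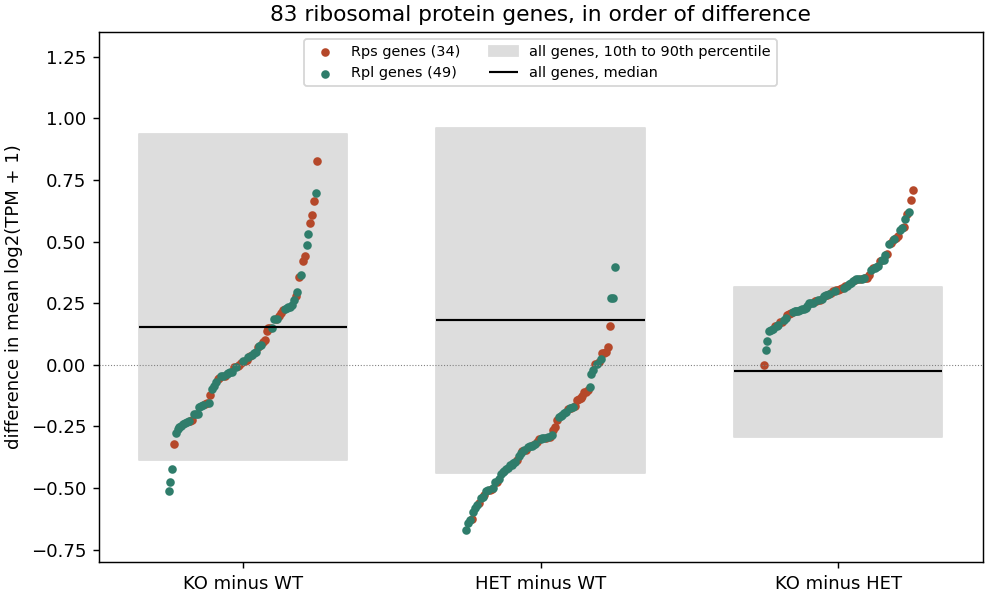
Differences in mean log2(TPM + 1) of the 83 genes in the 3 comparisons, each gene a point in order of its difference, with Rps and Rpl genes in separate colours. Grey boxes span the 10th to 90th percentile of all genes tested and black lines their median; the genes centre on 0.02 for KO minus WT, on -0.30 for HET minus WT and on 0.30 for KO minus HET.

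**Figure D3:**
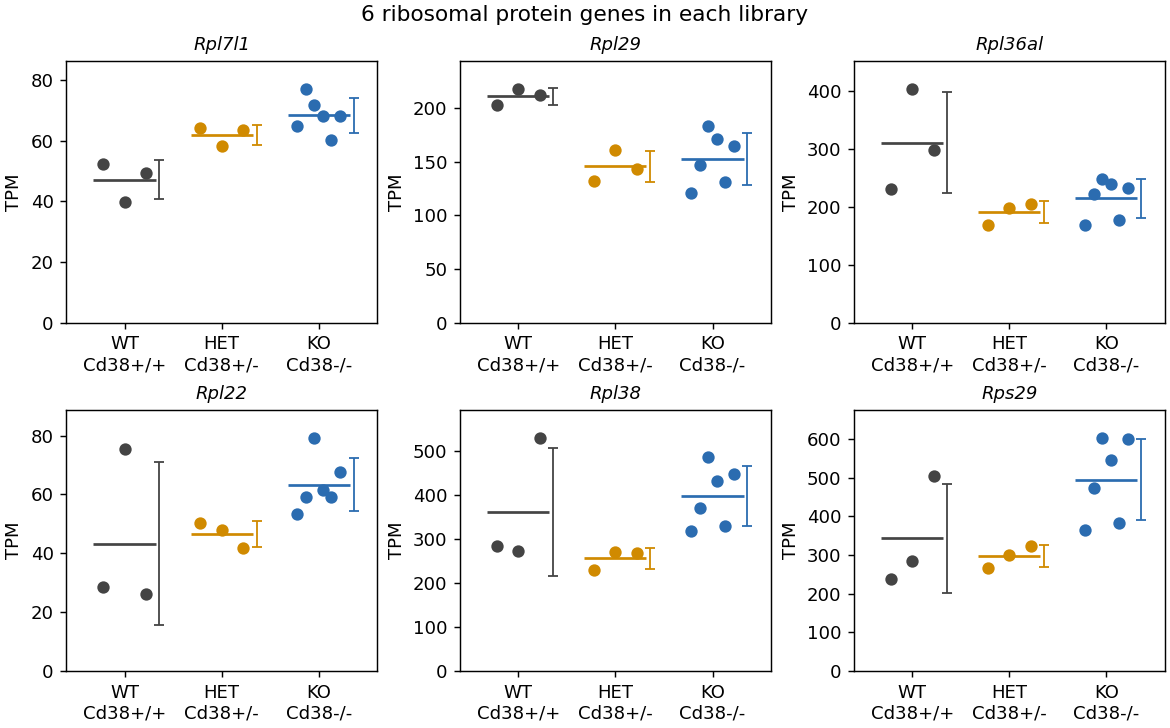
TPM of Rpl7l1, Rpl29, Rpl36al, Rpl22, Rpl38 and Rps29 in each library by genotype, with points for libraries, lines for means and bars for SD. For Rpl7l1 and Rpl29 the 3 WT points stand apart from all 9 mutant points, and for Rpl38 and Rps29 the 6 KO points stand above the 3 HET points while WT overlaps KO.

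The comparison of HET with WT concerned loss of 1 Cd38 allele. Most ribosomal protein genes had lower values in HET, but none passed the test. The log2 fold change was negative for 71 of 83 genes, against 35.6% of the 11763 genes tested, and the median was -0.30 against 0.18 over all genes. No gene of the whole table was called in this comparison (0.0%), and the smallest q of a ribosomal protein gene was 0.176. With unadjusted p under 0.05, 16 of the 83 were lower, against 3.99% of all genes, and 0 were higher, against 9.5%. The count of 16 was 39 without WT replicate 1, against 6.06% of all genes, and 6 without HET replicate 1, against 2.67%.

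All 3 HET libraries lay below all 3 WT libraries for 17 genes, against 6.94% of all genes, and above them for Rpl7l1 alone, against 15.5%. Among them were Rpl5, Rpl13, Rpl18, Rpl28, Rpl29, Rpl34, Rpl35, Rpl36al and Rpl38 of the large subunit or its paralogs and Rps9, Rps10, Rps14, Rps15, Rps16 and Rps24 of the small subunit. With 3 libraries against 3 the exact permutation test cannot give less than p = 0.1.

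Rpl13, a protein of the large subunit, read 628, 700 and 784 TPM in WT and 436, 567 and 479 TPM in HET, a log2 fold change of -0.51 (SE 0.15, limma q = 0.178). Rpl35, near the exit of the peptide tunnel, read 173, 120 and 168 TPM in WT and 92.1, 103 and 95.3 TPM in HET, a log2 fold change of -0.64 (SE 0.19, limma q = 0.177). Rps9, one of the proteins that bind the small ribosomal RNA early in assembly, read 375, 522 and 531 TPM in WT and 269, 356 and 296 TPM in HET, a log2 fold change of -0.62 (SE 0.18, limma q = 0.177). In each of these genes all WT libraries lay above all HET libraries, and the nearest libraries of the genotypes were close, at 628 and 567 TPM in Rpl13, 120 and 103 TPM in Rpl35, and 375 and 356 TPM in Rps9. The lowest difference was that of Rpl36al (-0.67, SE 0.21), the paralog of Rpl36a. Low values were also found for Rpl11 (-0.63), Rpl27 (-0.60) and Rpl5 (-0.58).

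The highest values in HET against WT belonged to Rpl7l1 (0.40), Rpl22 (0.27), Rpl22l1 (0.27), Rps27rt (0.16), Rps12 (0.07) and Rps28 (0.05). None passed the test. Those of Rps12, Rps28 and Rps27rt changed sign in at least 1 alternative setting. The 3 genes of the acidic stalk, which recruits elongation factors, had log2 fold changes of -0.33 (Rplp0), -0.42 (Rplp1) and -0.39 (Rplp2) with SEs of 0.17, 0.23 and 0.18, beside -0.03, -0.07 and -0.04 for KO against WT.

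KO and HET, the mutant genotypes, were compared to ask whether the second null allele added a difference. Ribosomal protein genes had higher values in KO for 82 of 83 genes, against 45.4% of the 11563 genes tested. The exception was Rps19bp1, with a log2 fold change of -0.00. The median was 0.30 against -0.02 over all genes. None was called, against 0.0346% of all genes, and the smallest q was 0.120. With unadjusted p under 0.05, 38 of the 83 were higher, against 6.24% of all genes, and 0 were lower, against 5.0%. Without HET replicate 1 the 38 became 16, against 8.99% of all genes, with 80 of 83 positive and a median of 0.21 against 0.034 over all genes. Without KO replicate 3 they became 26, against 5.14% of all genes, with 82 of 83 positive and a median of 0.24. HET replicate 1 was the library with the highest choroid plexus sum and KO replicate 3 the one with the highest oligodendrocyte sum. The 8 ependymal markers, all with a mean of at least 5 TPM, summed to 4278 to 6667 TPM in KO and to 3342 to 3925 TPM in HET, so that every KO library lay above every HET library, while WT, at 3265 to 6299 TPM, spanned both. The part of those cells in the difference was not tested.

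All 6 KO libraries lay above all 3 HET libraries for 12 genes, against 2.85% of all genes, and below them for 0, against 2.88%. These were Rpl4, Rpl7, Rpl22, Rpl36a, Rpl37, Rpl37a, Rpl38, Rpl41, Rplp0, Rps27, Rps27rt and Rps29. Rpl38, whose loss in mice alters translation of Hox messages, had the smallest q. It read 229, 271 and 267 TPM in HET, 319 to 486 TPM with a median of 402 TPM in KO, and 283, 273 and 529 TPM in WT. The mutant genotypes were apart while WT replicate 3 exceeded every other library, and the log2 fold change of KO against HET was 0.62 (SE 0.14, limma q = 0.120).

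Rps29 had the largest difference, 0.71 (SE 0.17, limma q = 0.139). It read 266, 300 and 324 TPM in HET and 365 to 603 TPM with a median of 510 TPM in KO. Rps27, a zinc finger protein of the small subunit, read 390, 392 and 391 TPM in HET and 421 to 743 TPM with a median of 603 TPM in KO, with a log2 fold change of 0.56 (SE 0.16, limma q = 0.196). In both the KO values spread widely and the HET values narrowly, so that the highest HET library lay just under the lowest KO library. Rps27rt had 0.67 (SE 0.18), Rps28 0.61 (SE 0.18) and Rpl37a 0.59 (SE 0.16). The smallest values other than that of Rps19bp1 belonged to Rpl29 (0.06), Rpl6 (0.10), Rpl7l1 (0.14), Rpl18 (0.14) and Rpl12 (0.15). Of these, Rpl29, Rpl6 and Rpl12 changed sign in at least 1 alternative setting, and so did Rps19bp1.

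Genes of short coding length tended to have larger differences between KO and HET, with exceptions. Coding lengths of the 83 genes ran from 75 bases (Rpl41, which encodes one of the smallest known proteins) to 1257 bases (Rpl4). For the 11 genes with a coding length under 300 bases the median log2 fold change of KO against HET was 0.56. Of the 11, 10 were higher at unadjusted p under 0.05, against 6.24% of all genes, and 7 were higher without overlap, against 2.85%. The median was 0.31 for the 49 genes of 300 to 600 bases and 0.25 for the 23 longer ones. Of the 11, Rps27l (252 bases) had only 0.18 and Rpl39 (153 bases) 0.40, below the 0.51 of the longer Rps25 (375 bases). Over the 83 genes the Spearman correlation of coding length with this log2 fold change was -0.54, and it was -0.25 once the dependence on transcript length and GC content had been taken out of each library, a correlation across genes that are not independent. The corresponding values were -0.27 and -0.28 for KO against WT and -0.02 and -0.18 for HET against WT.

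**Figure D4:**
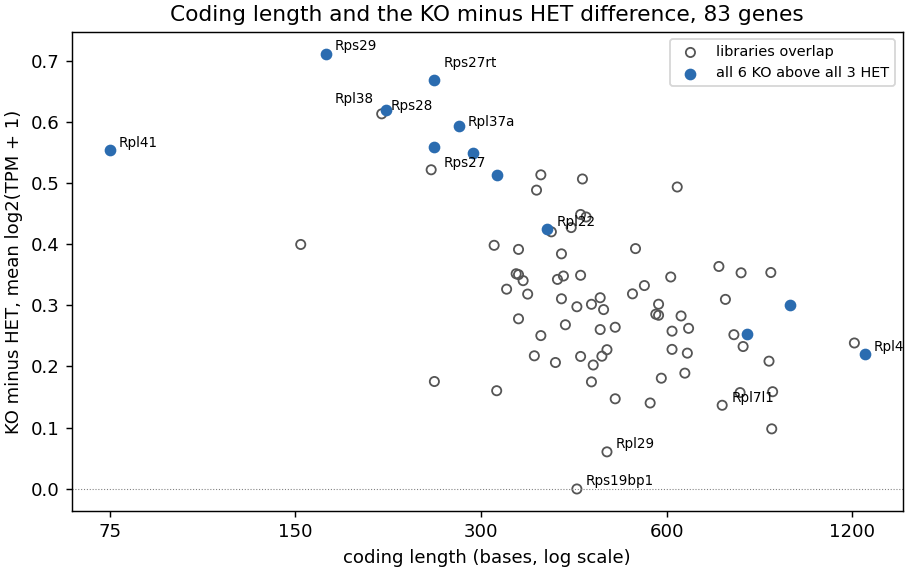
Difference in mean log2(TPM + 1) between KO and HET plotted against coding length in bases on a log scale, 1 point per gene. Filled points mark the 12 genes whose KO libraries all exceeded the HET libraries; 7 of them have a coding length under 300 bases.

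Other genes with short transcripts were compared with the ribosomal protein genes of the same length. In transcripts under 500 bases the 12 ribosomal protein genes had a median log2 fold change of 0.52 for KO against HET, -0.18 for HET against WT and 0.18 for KO against WT, beside 0.21 (55 genes), -0.18 (59 genes) and 0.01 (59 genes) for the others. Among genes outside the set, those with transcripts of 500 to 1000 bases had a median log2 fold change of 0.15 for KO against HET (665 genes), -0.25 for HET against WT (685 genes) and -0.09 for KO against WT (686 genes). The 47 ribosomal protein genes of that class had 0.28, -0.33 and -0.04. In transcripts of 1000 to 2000 bases the 20 ribosomal protein genes had 0.28 for KO against HET and -0.27 for HET against WT, beside 0.05 and -0.02 for the other genes. With the trend on length and GC content removed, the median of the 83 genes was 0.13 for KO against HET (70 of 83 positive), -0.18 for HET against WT (59 of 83 negative) and -0.06 for KO against WT. Over all genes the same correction gave medians of -0.02, -0.04 (54.0% of genes negative) and -0.06. The distance between the medians of the 83 genes and of all genes thus went from 0.33 to 0.15 for KO against HET, from -0.48 to -0.13 for HET against WT and from -0.14 to 0.0069 for KO against WT.

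The balance between the small and the large subunit was compared within each library. Among the 77 genes other than paralogs and Rps19bp1, the mean log2(TPM + 1) of the small subunit minus that of the large subunit was -0.16, -0.17 and -0.15 in WT, -0.08, -0.06 and -0.05 in HET, and between -0.08 and 0.02 in KO. All 3 WT libraries lay below all 9 mutant libraries, while HET and KO overlapped. This difference within a library is not moved by the scaling of the library. It was computed after the values were seen and carries no test.

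In KO against WT the log2 fold change was positive for 21 of 31 small subunit genes (median 0.09) and 19 of 46 large subunit genes (median -0.03). In HET against WT it was negative for 25 of 31 (median -0.25) and 43 of 46 (median -0.35). The small subunit minus the large subunit mean was 0.14 for KO against WT, 0.12 with the length and GC trend removed, and between 0.13 and 0.15 when any 1 library was left out. For HET against WT it was 0.10, 0.08 and between 0.09 and 0.11. With the 27 small and 41 large subunit genes of at least 300 coding bases, WT was still below every mutant library, at -0.20, -0.23 and -0.19 against values between -0.16 and -0.06.

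**Figure D5:**
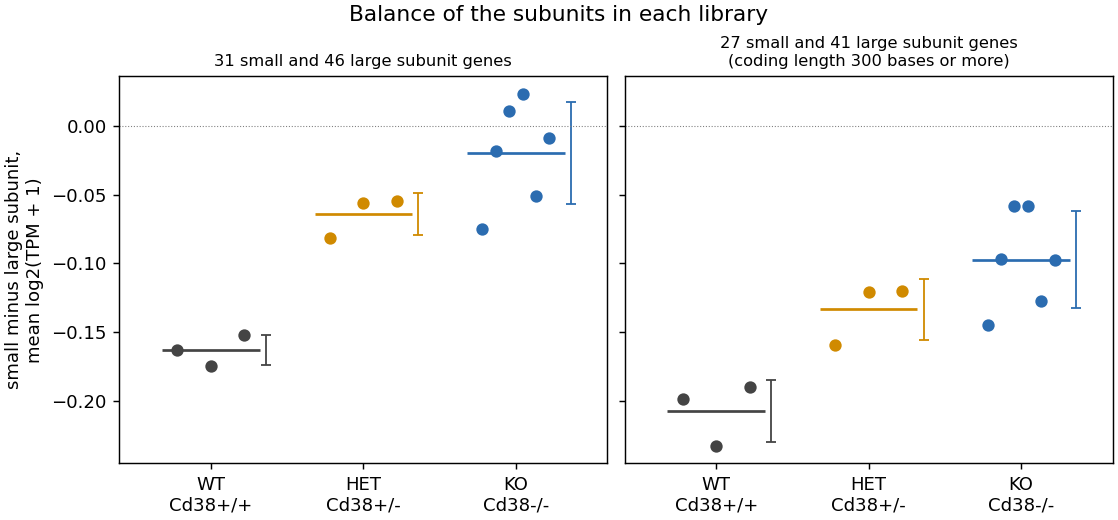
Mean log2(TPM + 1) of small subunit genes minus that of large subunit genes in each library, for all 77 genes (left) and for those with at least 300 coding bases (right); points are libraries, lines means and bars SD. In both panels the 3 WT libraries are the lowest, on the left between -0.17 and -0.15.

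Paralogs and their partners were also compared within each library. The log2(TPM + 1) of Rpl36al minus that of Rpl36a was 1.69, 2.12 and 1.32 in WT, 1.32, 1.47 and 1.30 in HET, and 0.92 to 1.19 with a median of 0.97 in KO. Rpl36al was thus above its X-linked partner in every library, and by less in each KO library than in any other library. For Rps27l minus Rps27 the values were -0.07, -0.52 and -1.61 in WT, -1.10, -0.82 and -0.96 in HET and -1.45 to -1.16 in KO, with KO below HET and WT spanning both. For Rpl7l1 minus Rpl7 the HET values (-1.59, -1.83 and -1.66) lay above those of WT (-1.86, -2.54 and -1.92), and KO overlapped both. Rpl22l1 minus Rpl22 and Rps27rt minus Rps27 overlapped in all 3 comparisons.

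A list of core genes whose mutation causes Diamond-Blackfan anaemia, which may leave out others, held 9 of the set. Among them were Rpl5, Rpl11, Rpl35a, Rps7, Rps10, Rps19, Rps24 and Rps26. Of the 9, 0 were called, against 8.28% of all genes in KO against WT, 0.0% in HET against WT and 0.0346% in KO against HET. The medians of the 9 were -0.04 for KO against WT, -0.35 for HET against WT and 0.33 for KO against HET, close to those of all 83. Rps19, the gene most often affected in that disease, read 197, 366 and 341 TPM in WT, 180, 227 and 210 TPM in HET and 210 to 353 TPM with a median of 297 TPM in KO. WT overlapped both mutant genotypes. The 4 X-linked genes Rpl10, Rpl36a, Rpl39 and Rps4x had medians of 0.01, -0.32 and 0.29. Rps27a, which is made as a fusion with ubiquitin, had -0.00, -0.26 and 0.26.

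Genes that act with the ribosome were counted from lists. Fau and Rack1, ribosomal proteins that the naming rule misses, were not called, with log2 fold changes of -0.59 and -0.41 for HET against WT and 0.23 and 0.22 for KO against HET. Of 12 genes for elongation factors and other TOP messages, 1 rose in KO against WT. This was Eif4b, a helper of the Eif4a helicase, at 15.4 ± 2.38 TPM in WT (n = 3) and 38.2 ± 4.09 TPM in KO (n = 6), a log2 fold change of 1.26 (limma q = 0.00584). Of 27 initiation factors, Eif4a2 rose (0.56, limma q = 0.0247) and Eif4a1, the other cytoplasmic Eif4a helicase, fell (-0.41, limma q = 0.0376). Both helicases are near-identical in parts, and reads could be shared between them.

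Of 35 biogenesis factors, Tsr1 and Utp4, which help to assemble the small subunit, rose in KO against WT (1.42, limma q = 0.0397, and 0.95, limma q = 0.0469). Of the tested 16 of 17 TOP regulators and mTORC1 genes, Mlst8, a subunit of mTORC1, and Rps6ka1, a kinase of the ribosomal protein S6, rose (0.82, limma q = 0.0392, and 1.07, limma q = 0.0237). Of the 15 tested genes of RNA polymerase I and its factors, 0 were called. In all, 7 of the 108 tested genes on these 6 lists were called in KO against WT, 6 higher and 1 lower, against 8.28% of all genes, and 0 in the other comparisons. In HET against WT, which uses the same WT libraries, the log2 fold change was 1.16 for Eif4b and 0.61 for Eif4a2, and neither passed the test.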

How the data were processed

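RNA of ACSA-2 selected midbrain astrocytes was sequenced in 12 libraries (3 WT, 3 HET and 6 KO, by the genotype in the labels). The authors depleted ribosomal RNA, made full-length cDNA from low input, and sequenced paired ends. By the submitters' processing notes, Trim Galore 0.6.4, STAR 2.7.1a, RSEM 1.2.28, DESeq2 1.36.0 and the build mm10 were used; the annotation is not given in the sources used here. The deposited values are TPM as estimated by the authors, 1 column per library over 20614 genes, and sum to 1000000 in each. Reads per library are not given, so only the spread between libraries measures precision.

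For each pair of genotypes, a gene entered where either genotype averaged more than 5 TPM, and was fitted as log2(TPM + 1) with limma 3.58.1 (lmFit, eBayes with a trend) under R 4.3.3 (statmod 1.5.0). A called gene had a Storey q under 0.05 over all genes tested and at least a 1.2-fold change. Fold changes are on this scale and understate those of low genes. The procedure was also run on simulated data with independent genes, which does not cover genes that move together between libraries. Single genes were compared with two-sided exact permutation tests. GENCODE vM21 (GRCm38) gave the transcript length, GC content and coding length (principal isoform) of 20503 genes (99.5%), and RefSeq the promoters. Python 3.11.15, pandas 2.3.3, numpy 2.4.6, scipy 1.17.1 and matplotlib 3.10.9 were used.

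The members and lists were chosen with earlier results of these data known. The genes named are the 6 with the highest and lowest mean TPM, the 6 with the highest and lowest log2 fold change in each comparison, those called, members of the role lists, the 3 genes on either side of the level threshold and, of the other lists, the called genes and otherwise at most 2 per list. Rps15, Rps16, Rpl28, Rpl34, Rpl4, Rpl7 and Rpl37 were named after their values were seen, as genes without overlap. Some genes under this rule are not reported here. Alternatives were pseudocounts of 0.1 and 5, other filters, Benjamini-Hochberg adjustment, eBayes without the trend, library weights, median-ratio and quantile scaling, removal of each library's trend on length and GC content, 1 fit of all libraries, the replicate number as a block and leaving out each library; centring on the ribosomal protein genes was added after seeing the data.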

Additional observations from a re-analysis of the deposited data

How the results depend on the processing

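The median log2 fold change of the ribosomal protein genes kept its direction under every alternative for HET against WT (-0.45 to -0.18 when 1 library was left out) and, apart from centring on these genes themselves, for KO against HET (0.21 to 0.41), whereas for KO against WT it ran from -0.11 to 0.08. Between KO and WT, 2 ribosomal protein genes were called (2.41%, against 8.28% of all genes). The count was 1 (1.2%) with eBayes without the trend, median-ratio scaling or quantile normalization, against 7.21%, 8.1% and 9.51% of all genes. It was 0 with Benjamini-Hochberg adjustment, library weights or centring, against 2.78%, 0.00853% and 0.162%. Removing the length and GC trend gave 4 (4.82%, against 11.0%), and 1 fit of all libraries gave 7 (8.43%, against 15.5%). With 1 library left out it was 0 to 15, against 0.633% to 26.5% of all genes. Over all genes this comparison called 2283 without a filter, 326 with Benjamini-Hochberg adjustment, 1 with library weights, 1822 with all libraries in 1 fit, 19 with centring, and 74 to 3119 with 1 library left out. For HET against WT, 1 ribosomal protein gene was called without a filter (1.2%, against 3.85% of all genes). With all libraries in 1 fit, 12 were called (14.5%, against 12.4%). Over all genes, HET against WT called 663 without a filter, 9 without the trend, 30 with weights, 1464 in 1 fit, 1 with centring and 0 to 10 with 1 library left out. For KO against HET, library weights called 55 ribosomal protein genes (66.3%) and 3120 genes in all (27.0%). The weight was 42.6 for HET replicate 3 and at most 1.40 for any other library (the estimation of weights stopped short of its convergence tolerance in some fits). In the same comparison 1 gene in all was called under median ratios, 1 fit of all libraries and centring, and 0 to 93 with 1 library left out (93 without KO replicate 4). The cause of these changes was not tested.

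The labels do not say that a replicate number marks a shared litter or day. Deviations of same-numbered libraries from their genotype means had correlations of -0.32 to 0.50 over 9 pairs, 1 of them above 0.1, and 2 of 9 libraries correlated best with their own number, so the block is given only as an alternative. With the replicate block, 0 ribosomal protein genes were called in each comparison, alone or with the length and GC trend removed, and over all genes 2 and 2 for KO against WT, 4 and 1 for HET against WT, and 2 and 554 for KO against HET.

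With 1 library left out, 26 to 56 of the 83 genes had positive values in KO against WT, so that some genes changed sign. Of the 6 highest and 6 lowest log2 fold changes in HET against WT, 3 changed sign. Rps12 became -0.065 with median-ratio scaling and -0.0057 with quantile normalization, and ran from -0.34 to 0.61 with 1 library left out. Rps28 became -0.091 with median-ratio scaling and ran from -0.17 to 0.28, and Rps27rt became -0.16 with quantile normalization and ran from -0.10 to 0.34. In KO against HET, Rps19bp1 became 0.020 with scaling by median ratios and 0.0070 with quantile normalization, and ran from -0.13 to 0.093 with 1 library left out. With the length and GC trend removed, Rpl29 became -0.089 and Rpl6 -0.029, and with the replicate block as well Rpl29 became -0.097, Rpl6 -0.13 and Rpl12 -0.078. Rpl12 ran from -0.023 to 0.28 and Rpl29 from -0.0067 to 0.14 with 1 library left out, both lowest without HET replicate 1. TPM carry no read counts, so the counting error of low genes such as Rps27rt could not be given.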
